A study of Mus musculus with 16 samples.

Results

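The genes that attach glutathione, glucuronic acid or sulfate to small molecules, and those that detoxify peroxides, were followed across mouse intestinal organoids. The members were all protein-coding genes whose symbols begin with Gst and a cytosolic or kappa class letter, with Ugt1a, Ugt2a or Ugt2b, with Sult or with Gpx and a digit. To these were added Nqo1, Gclc, Gclm, Gsr, Txnrd1, Srxn1 and Hmox1, called NRF2-linked genes below. The rule gave 77 of the 46078 genes in the count files: 22 Gst, 19 Ugt, 21 Sult, 8 Gpx and 7 NRF2-linked genes. Of them, 53 passed the filter on low counts and could be tested, and 24 did not.

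Organoids are hollow epithelial buds that grow in Matrigel from isolated crypts. The 16 libraries came from C57BL6 organoids and fall into 6 groups by their labels. The 2 untreated groups, Apc mutant and wild type, were harvested on day 2 of culture with 2 libraries each. The remaining 4 groups of 3 libraries were grown in conditioned medium, which is medium already used by other organoids, and are labelled APCCM or WTCM on day 2 or day 4. Per the labels' protocols, the wild type cells carry Lgr5-EGFP-IRES-CreERT2 and a red mCherry construct. The mutant cells carry the same allele with Apcfl/fl and a green Venus construct, were recombined with 4OH-tamoxifen in the dish, and Villin-CreERT2.Apcfl/fl crypts are also listed as a source. Which libraries used the latter is not stated, so the Cre driver may differ between the genotypes. The culture factors R-spondin, Noggin and EGF are common to both genotypes, so the wild type cells also receive a Wnt-raising factor. The labels do not say whether replicates were separate cultures, so p-values measure only the spread between these samples.

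Conjugation is the second stage of drug and metabolite clearance. Glutathione S-transferases (Gst) join glutathione to electrophiles, UDP-glucuronosyltransferases (Ugt) add glucuronic acid to bilirubin, steroids, bile acids and drugs, and sulfotransferases (Sult) add a sulfate. Glutathione peroxidases (Gpx) reduce peroxides with glutathione. In the gut these enzymes are known mainly from absorptive cells of the villus, where ABC transporters pump the conjugates out. The transcription factor NRF2, released from KEAP1 by electrophiles, is known to drive Nqo1, Gclc, Gclm, Srxn1, Txnrd1, Hmox1 and several Gst genes through antioxidant response elements.

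For 67 of the 77 members, the RefSeq promoter table (build GRCm38.p6) held 83 promoters, and the 250 bases before each start were searched on both strands for 4 motifs. The 6 promoters below were picked from genes named in the results and do not stand for the other members. Where a gene had several starts, the start with the most antioxidant response element cores is shown. Nqo1 and Srxn1 held no such core in their windows and are not shown. They are written 5′ to 3′ toward the start, with every match in capitals. Gclm and Txnrd1, at its second listed start, hold the antioxidant response element core TGACNNNGC on the opposite strand, so its reverse complement is in capitals. Gstm1 and Gstm3 rose with time under one label and fell under the other. Ugt1a1 and Ugt2a3 hold the HNF1 half-site GTTAAT. Gclm, Txnrd1 and Gstm1 also hold the xenobiotic response element core GCGTG, and Gstm3 and Txnrd1 the TCF/LEF motif CTTTGAA.

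Gclm promoter (chr3:122245307-122245556, plus strand): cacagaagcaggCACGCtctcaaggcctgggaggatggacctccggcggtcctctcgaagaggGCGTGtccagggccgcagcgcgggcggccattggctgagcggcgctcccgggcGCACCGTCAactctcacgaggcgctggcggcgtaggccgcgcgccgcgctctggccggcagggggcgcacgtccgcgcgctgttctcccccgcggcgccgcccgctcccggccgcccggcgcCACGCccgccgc
Txnrd1 promoter (chr10:82858956-82859205, plus strand): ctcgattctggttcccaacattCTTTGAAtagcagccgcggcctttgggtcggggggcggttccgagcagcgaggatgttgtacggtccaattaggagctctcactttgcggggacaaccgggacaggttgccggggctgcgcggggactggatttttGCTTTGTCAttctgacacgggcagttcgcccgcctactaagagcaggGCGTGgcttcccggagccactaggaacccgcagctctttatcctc
Gstm1 promoter (chr3:108017974-108018223, minus strand): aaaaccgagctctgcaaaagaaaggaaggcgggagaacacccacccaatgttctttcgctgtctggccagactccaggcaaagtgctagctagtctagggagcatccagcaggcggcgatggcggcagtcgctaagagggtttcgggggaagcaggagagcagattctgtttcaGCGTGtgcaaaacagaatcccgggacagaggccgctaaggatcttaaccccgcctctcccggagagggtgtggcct
Gstm3 promoter (chr3:107969175-107969424, minus strand): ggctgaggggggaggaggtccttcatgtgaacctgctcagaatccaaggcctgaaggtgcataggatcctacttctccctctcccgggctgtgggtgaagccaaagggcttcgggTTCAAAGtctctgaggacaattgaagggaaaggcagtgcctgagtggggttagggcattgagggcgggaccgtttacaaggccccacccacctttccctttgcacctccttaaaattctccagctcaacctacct
Ugt1a1 promoter (chr1:88211709-88211958, plus strand): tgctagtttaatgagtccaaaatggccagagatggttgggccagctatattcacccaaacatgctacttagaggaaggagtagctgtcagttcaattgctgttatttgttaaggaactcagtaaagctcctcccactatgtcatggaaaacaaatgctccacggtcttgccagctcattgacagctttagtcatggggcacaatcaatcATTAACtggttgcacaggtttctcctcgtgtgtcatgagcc
Ugt2a3 promoter (chr5:87337196-87337445, minus strand): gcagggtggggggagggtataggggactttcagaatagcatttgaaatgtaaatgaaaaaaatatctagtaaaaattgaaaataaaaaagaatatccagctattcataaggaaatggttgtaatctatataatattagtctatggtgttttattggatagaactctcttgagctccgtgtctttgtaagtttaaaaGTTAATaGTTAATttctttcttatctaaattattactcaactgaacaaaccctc

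The antioxidant response element core was in 5 of the 83 member promoters (6.0%) and in 10.2% of all 32851 promoters. Gclc, Gsr and Hmox1, 3 of the 7 NRF2-linked genes, are among the 10 members not in this count. The HNF1 half-site was in 14 of 83 (16.9%) against 6.4% of all, the xenobiotic response element core in 21 (25.3%) against 28.2%, and the TCF/LEF motif in 8 (9.6%) against 4.5%. The 4 motifs do not contain each other, and the Sult2a promoters with half-sites belong to genes without a single count here. A match is a match of letters, and no match says only that the letters are not in this window.

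Each library grown in conditioned medium held 17986815 to 29152692 gene counts, and each untreated one 8325979 to 13027701. Protein-coding genes took 82.3 to 87.4% of the counts in conditioned medium and 97.4 to 97.8% in the untreated libraries. For this reason levels with and without the medium are set side by side without a test. Apc stood at 217 to 249 CPM, counts scaled to library size, in the untreated mutant, at 69.3 to 76.1 in the untreated wild type and at 237 to 281 in the 4 conditioned medium groups. A gene-level count also takes reads outside a deleted part, so it does not check the labels. The Wnt target Nkd1 averaged 486 CPM in the untreated mutant but 1.61 and 1.76 CPM in the conditioned medium libraries labelled Apc mutant. That goes against the genotype label of these libraries. They are therefore called the libraries labelled APCCM and WTCM, and every direction between them is a direction between titles. All 12 carry the treatment label of Apc mutant medium, and the design text of the series lists other groups. WTCM day 4 replicate 1 stood apart from its group, with a chi-square per degree of freedom of 43.9 and 46.4 against the other libraries of the group, compared with 3.49 to 6.55 for all other pairs. Absorptive enterocyte markers summed to at least 8896 CPM in every group but the untreated mutant, where they are given with the results. Fibroblast markers summed to at most 3.16 CPM, with Col3a1 and Dcn at 0 in all 16 libraries.

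Per kilobase of exon that no other gene overlaps, the members with the highest mean level over the 6 groups were Gstm1 at 333 CPM per kb, Gsta4 at 296, Gstm3 at 235, Ugt2b34 at 184, Gpx1 at 166 and Gsto1 at 157. Ugt1a1, Gsta1, Gpx2 and Ugt1a7c followed at 119, 108, 105 and 94.2 CPM per kb. The order differed between groups: Gsta4 was above Gstm1 in untreated wild type (452 against 286 CPM per kb) and in WTCM day 4 (310 against 258). Gsta1 and Ugt1a7c were at 1.62 and 0.136 CPM per kb in the untreated mutant. Gstm1 and Gstm3 are mu class transferases, Gsta4 is the alpha class enzyme for lipid peroxidation aldehydes, and Ugt1a1 is the bilirubin transferase. The Ugt1a genes splice separate first exons to the same later exons, so only 385 of the 2224 exon bases of Ugt1a1 are its own and their per-kb levels are approximate. At the other end, 28 members stayed below 1 CPM in every library and 16 had no count in any. The 16 were Gpx5, Sult1c1, Sult1e1, all 8 genes from Sult2a1 to Sult2a8, Sult3a1, Sult3a2, Sult6b1, Ugt2a1 and Ugt2a2. The last 2 overlap nearly completely, so reads from either would be ambiguous. The map of levels by library shows these families side by side.

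**Figure D1:**
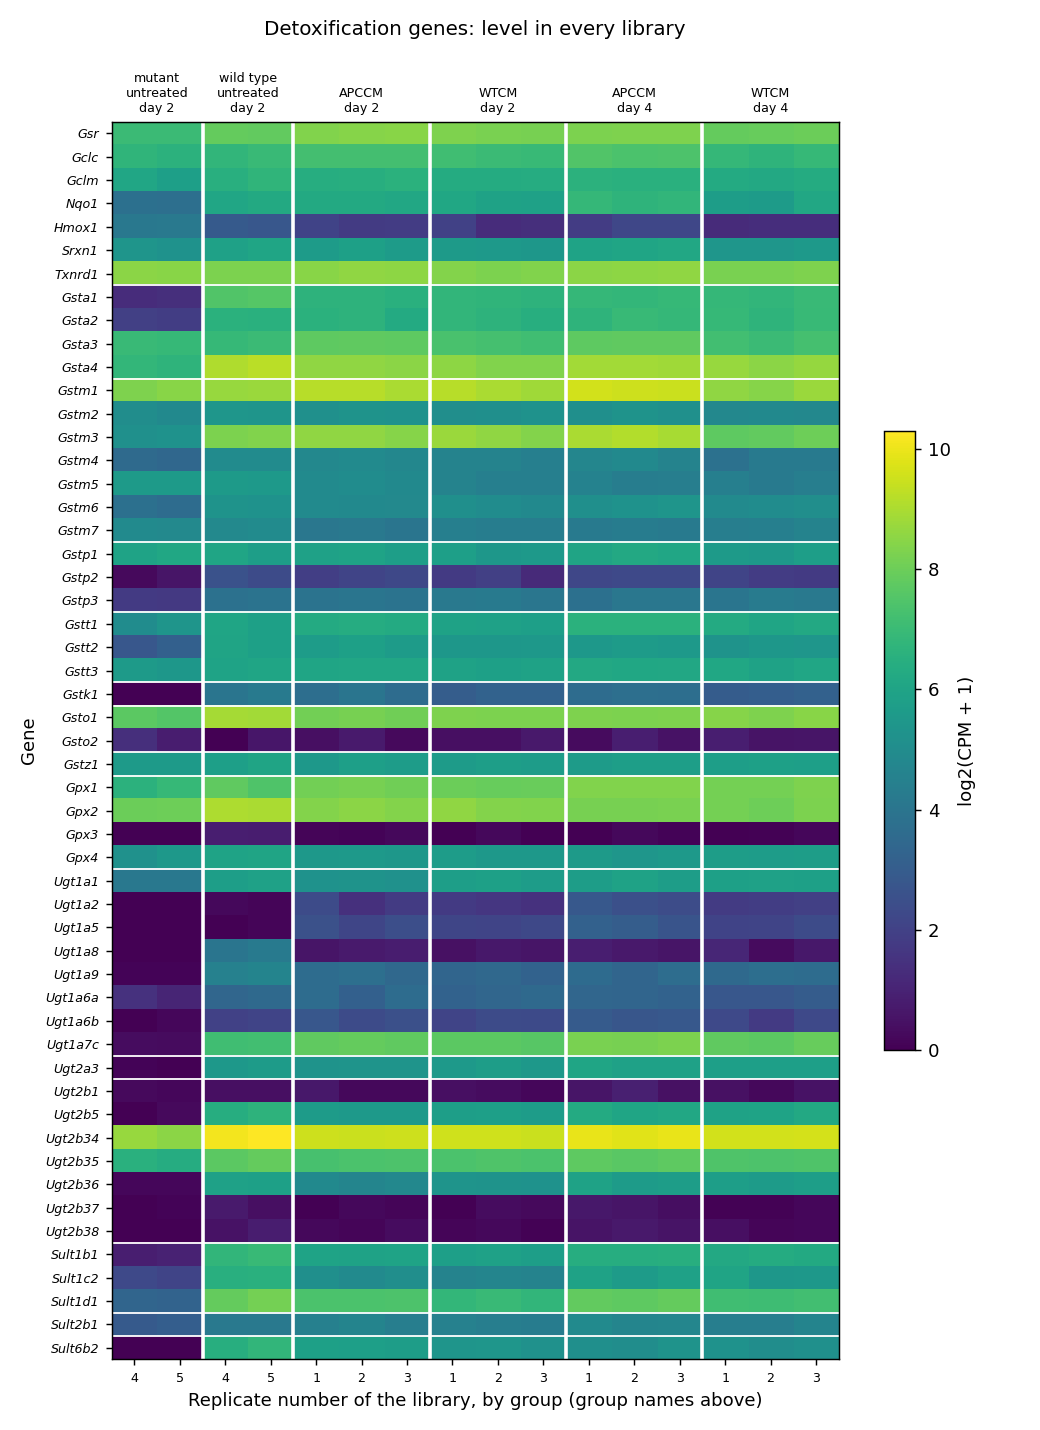
Level of the 53 tested members (rows, by family) in the 16 libraries (columns, by group and replicate number), as log2(CPM + 1). The untreated mutant columns are dark for most Ugt and Sult genes, and Gstm1 and Gstm3 are brightest in APCCM day 4.

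The first comparison asks how the genotypes differ without conditioned medium. In the untreated mutant, 16 of 21 tested Gst, 13 of 16 tested Ugt and 5 of 5 tested Sult genes were lower than in the untreated wild type. Of the 42 members at 10 CPM or more in wild type, 10 were under 1% of that level in the mutant. The share of all genes under this cut was not counted. The 10 members were Ugt1a7c, Ugt1a8, Ugt1a9, Ugt2a3, Ugt2b5, Ugt2b36, Sult1b1, Sult6b2, Gsta1 and Gstk1. The summed level of all members was 2736 to 2798 CPM in the mutant and 6591 to 6965 CPM in wild type. In bulk RNA, fewer cells of a type and less RNA per cell cannot be told apart.

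With the quasi-likelihood test of edgeR (Benjamini-Hochberg adjusted p under 0.05, as in every comparison below), 43 of the 53 tested members were lower in the mutant, where 30.1% of all 16510 genes tested were lower. Higher were 3 members, against 32.4% of all genes. The median log2 difference was -1.77, or -1.58 with genes at 0 set to their bound, and 0.00 over all genes. The filter ran over all 6 groups, so a member could pass through a group outside this comparison, as Ugt1a2 and Ugt1a5 did. A member could also pass only through the group where it was high, as Gpx3 did. These counts describe the members that passed.

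Among the Ugt genes, 13 of 16 tested were lower and none was higher. Ugt1a7c, a Ugt1a transferase, was at 140 and 143 CPM in wild type and at 0.277 and 0.245 CPM in the mutant. Its log2 difference was -9.05 (SE 0.15, adjusted p = 7.6e-25). Ugt2a3 was at 44.4 and 48.9 CPM in wild type and at 0.0693 and 0 CPM in the mutant. The mutant libraries held next to nothing of either transcript, and the groups were far apart. Ugt2b5 differed by -9.78 (SE 0.25), Ugt2b36 by -8.72 (SE 0.23) and Ugt1a9 by -8.33 (SE 0.33) on the log2 scale. Ugt1a8 was at 14.8 and 17.9 CPM in wild type and had no count in the mutant, at least 168-fold lower by a floor of 3 counts over the mutant group. Not every Ugt transcript was missing. Ugt2b34, the most abundant Ugt2b gene by CPM, was at 422 and 362 CPM in the mutant against 1094 and 1254 CPM in wild type. Its difference was -1.58 (SE 0.07, adjusted p = 1.1e-15). Ugt1a1, the bilirubin transferase, was at 16.4 and 16.3 CPM in the mutant and 53.0 and 58.7 CPM in wild type, a log2 difference of -1.77 (SE 0.09). Both genes kept a clear signal in the mutant although the groups did not overlap. The plot of the Ugt1a genes shows this contrast within 1 gene cluster.

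**Figure D2:**
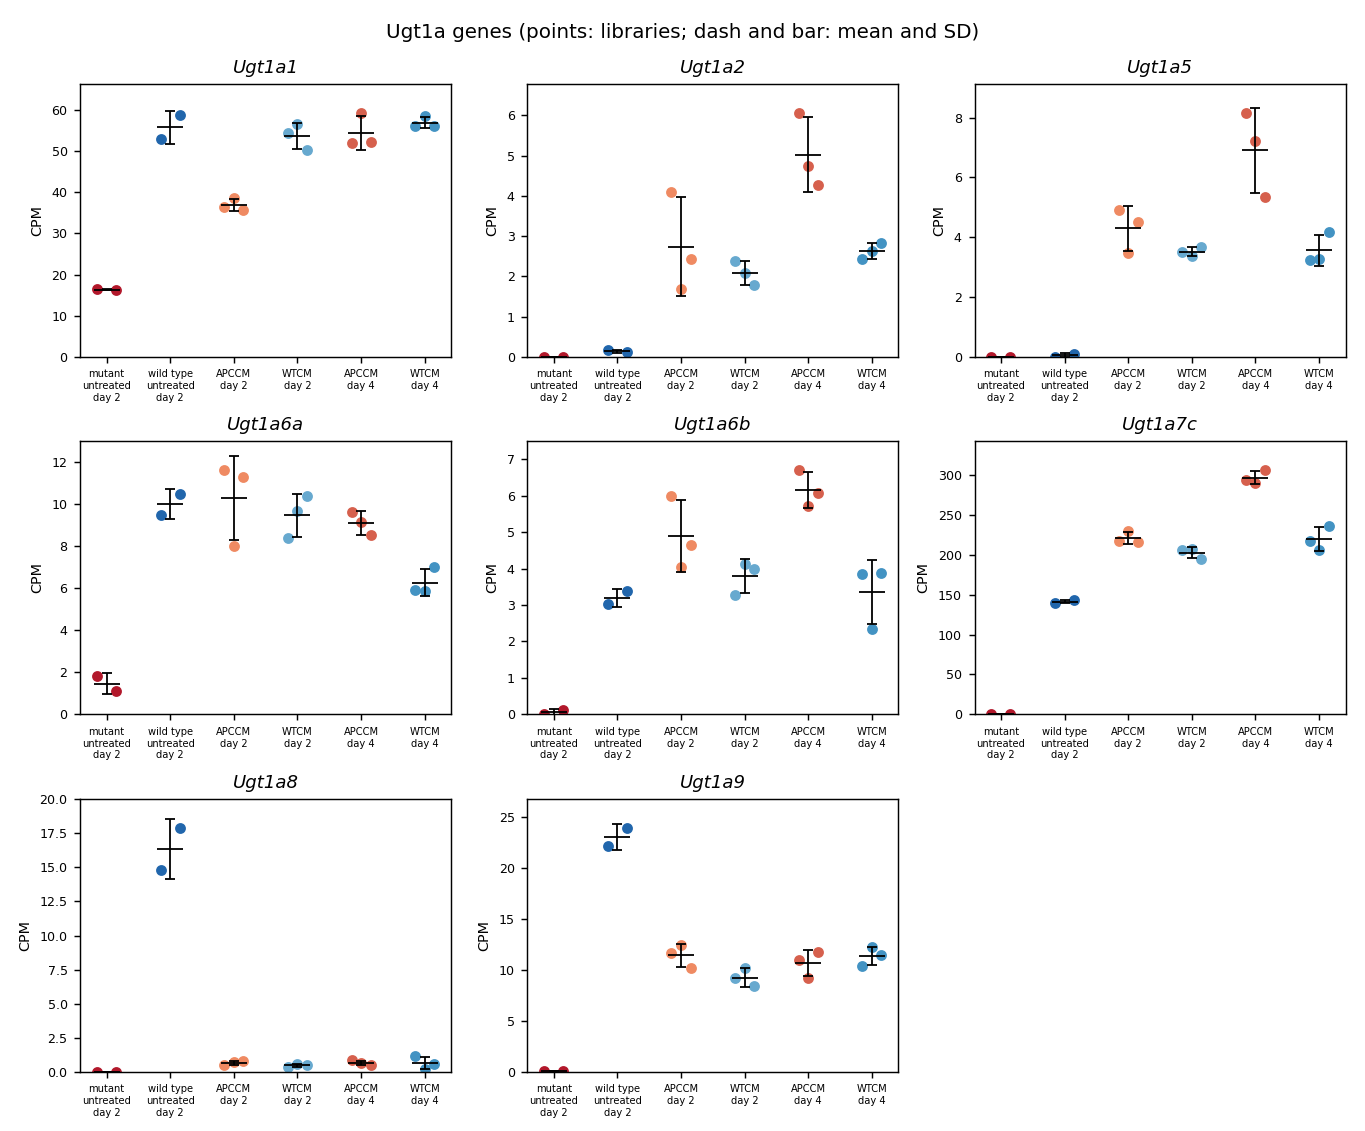
CPM of the 8 tested Ugt1a genes in each library (points) of the 6 groups, with mean and SD (dash and bar). Ugt1a1 is still at 16.4 and 16.3 CPM in the untreated mutant, while Ugt1a7c is at 0.277 and 0.245 CPM, and Ugt1a8 is at 14.8 and 17.9 CPM in untreated wild type and near 0 elsewhere.

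All 5 tested Sult genes were lower. Sult6b2, a sulfotransferase family member, was at 86.5 and 108 CPM in wild type with no count in either mutant library, at least 999-fold lower. Sult1b1, which sulfates thyroid hormones and phenols, was at 110 and 122 CPM in wild type and at 0.831 and 0.978 CPM in the mutant. That is a log2 difference of -6.99 (SE 0.13, adjusted p = 4.3e-24). The summed Sult level was 20.9 to 21.0 CPM in the mutant and 533 to 619 CPM in wild type. Every mutant library was below every wild type library for these genes.

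Of the 21 tested Gst genes, 16 were lower, 1 was higher and 4 did not pass the test. Gsta1, an alpha class transferase, was at 1.45 and 1.65 CPM in the mutant against 180 and 188 CPM in wild type, a log2 difference of -6.88 (SE 0.12). Gsta1 shares 90.5% of its 50-base windows with other annotated transcripts, and reads that aligned to several places were not counted, so its level may be understated. Gstk1, the mitochondrial and peroxisomal kappa class enzyme, was at 15 and 17.3 CPM in wild type with no mutant count, at least 166-fold lower. Gstm3 was at 35.3 and 36.8 CPM in the mutant against 305 and 320 CPM, a difference of -3.11 (SE 0.11). Its neighbour Gstm1 was at 312 and 349 CPM against 413 and 429 CPM, a difference of -0.35 (SE 0.10, adjusted p = 0.0028). The groups did not overlap for either mu class gene, and the gap was wide for Gstm3 alone. Gsta4 differed by -2.41 (SE 0.08) and Gsto1, an omega class enzyme, by -1.28 (SE 0.07). The 4 that did not pass were Gsta3, Gstm5, Gstm7 and Gstp1, with differences between -0.04 and 0.13. Gsto2 was called higher at 1.59 and 0.795 CPM against 0 and 0.545 CPM. That call was lost without mutant replicate 4 or wild type replicate 4.

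All 4 tested Gpx genes were lower, but Gpx3 had 17 counts in wild type and 0 in the mutant. It averaged no more than 0.104 CPM in any conditioned medium group, so it passed the filter only through wild type. Its call was lost with only the untreated libraries in the fit. Gpx2, the gastrointestinal peroxidase, was at 255 and 261 CPM in the mutant against 519 and 501 CPM (log2 difference -0.99, SE 0.08, adjusted p = 5.3e-11). Gpx1, the ubiquitous cytosolic enzyme, was at 97.9 and 117 CPM against 217 and 174 CPM (difference -0.86, SE 0.09). Both peroxidases remained well expressed in the mutant.

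The NRF2-linked genes did not move as a block. Nqo1, the quinone reductase, was at 13.0 and 12.4 CPM in the mutant against 67.7 and 75.0 CPM in wild type. Its log2 difference was -2.49 (SE 0.14, adjusted p = 8.9e-14). Hmox1, heme oxygenase, went the other way, at 16.3 and 17.0 CPM against 6.62 and 6 CPM (difference 1.39, SE 0.21, adjusted p = 2.0e-06). Txnrd1, cytosolic thioredoxin reductase, was also called higher, by 0.22 (SE 0.06, adjusted p = 0.003), but not with only the untreated libraries in the fit (0.19, adjusted p = 0.05). Glutathione reductase Gsr (-0.83, SE 0.06), sulfiredoxin Srxn1 (-0.68, SE 0.10) and the glutamate-cysteine ligase subunits Gclm (-0.65, SE 0.08) and Gclc (-0.20, SE 0.08) were lower. The Gclc call was lost without mutant or wild type replicate 5, with no filter on low counts and with only the untreated libraries in the fit. The groups of 2 libraries did not overlap for any of the 7, and the share of all genes without overlap was not counted.

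**Figure D3:**
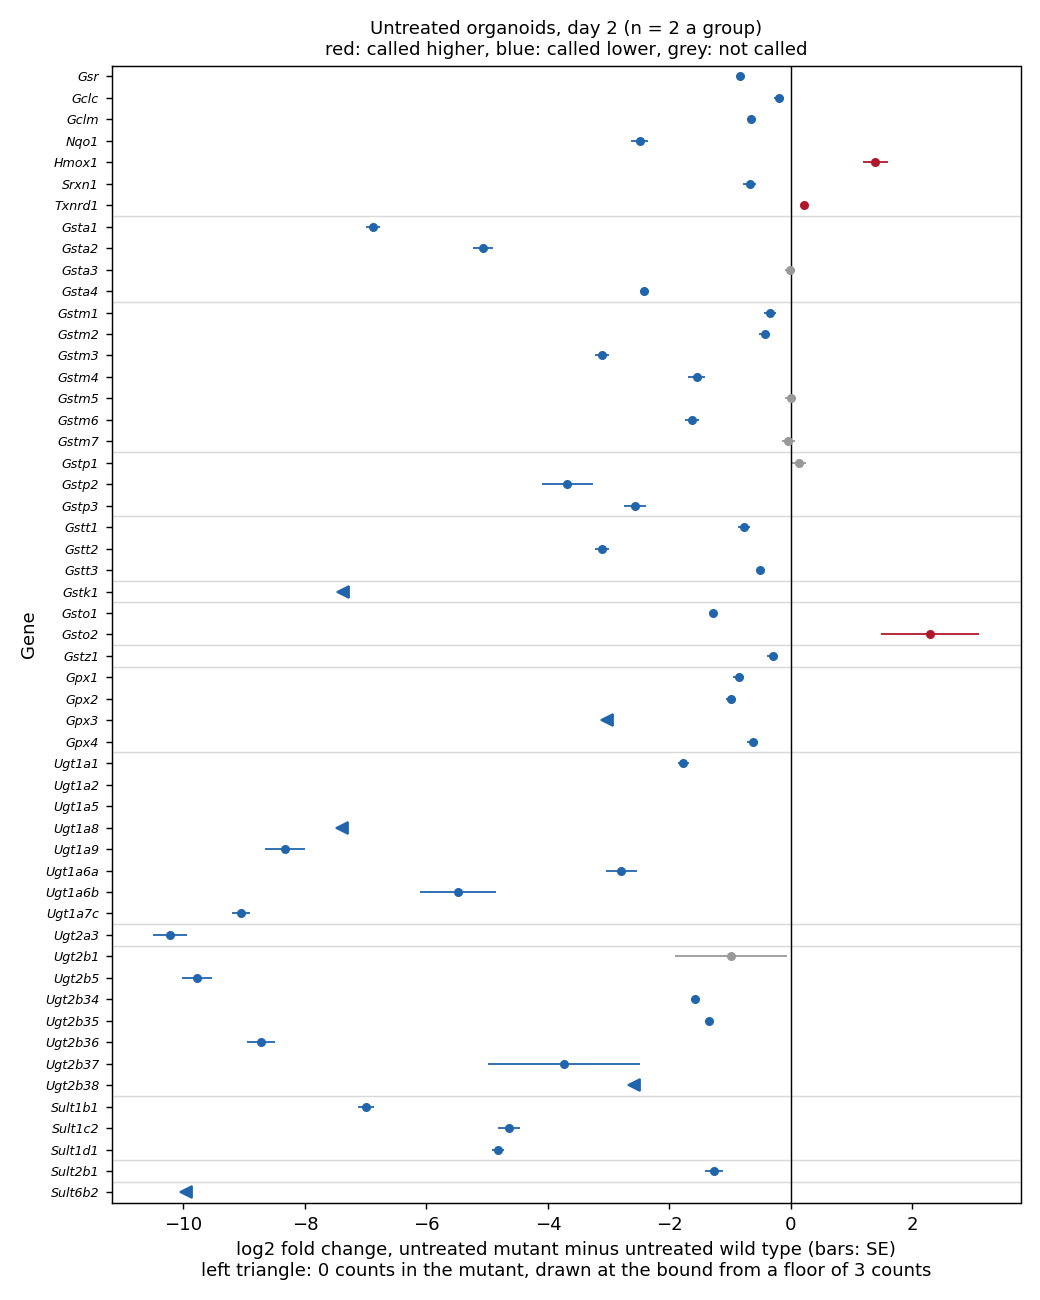
Log2 difference of each tested member, untreated mutant minus untreated wild type, with SE, and triangles for members without a count in the mutant, drawn at their bound. Most points lie left of 0, and the members called lower by a fitted value run from Gclc at -0.20 to Ugt2a3 at -10.22. Ugt1a2 and Ugt1a5, at or under the floor in both groups, are not drawn.

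Lists of genes that serve these enzymes were counted in the same fit. Of 19 genes for glutathione supply and recycling, 11 were lower and 5 higher. Ggt1, which breaks down extracellular glutathione, differed by -6.26 and the microsomal transferase gene Mgst2 by -6.15. Of 9 genes for the sulfate donor, 7 were lower, with the donor synthase Papss2 at 33.8 ± 0.189 CPM (SD, n = 2) against 620 ± 30.7. Of 19 tested other xenobiotic enzymes, 15 were lower, with the alcohol dehydrogenase Adh1 at 1.93 ± 0.4 CPM against 1959 ± 19.6. The 7 conjugate exporters split, with 4 lower and 3 higher, from Abcg2 at -4.02 to Abcc4 at 2.54. Of the xenobiotic receptors, Nr1i3 differed by -9.29 and Nr1i2 by -1.84.

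Cell type markers also differed between the genotypes, not all in the same direction. Of 10 absorptive enterocyte markers, 9 were lower in the mutant and their sum was 356 to 362 CPM against 10008 to 10254 CPM. Most of the mutant sum was Anpep, the 1 marker that was higher (296 against 140 CPM), while Alpi was at 0.13 against 1396 CPM. All 7 goblet markers were lower (219 to 228 against 3421 to 3603 CPM), as were 5 of 6 Paneth markers (777 to 826 against 6785 to 7029 CPM). All 6 enteroendocrine markers were lower, with Cck, Gip and Sct at 0 in the mutant (4.09 to 4.28 against 424 to 429 CPM). Of 5 crypt base stem markers, 4 were higher and 1 was lower (sum 1832 to 1918 against 2632 to 2832 CPM). All 5 Wnt feedback genes were higher (2414 to 2578 against 160 to 181 CPM). Of 5 general epithelium markers, 3 were lower and 1 was higher (2922 to 3093 against 4364 to 4524 CPM). Their part in the result was not tested.

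The second comparison sets the libraries labelled APCCM against those labelled WTCM on day 2 in conditioned medium. Differences were small, at most 0.69 on the log2 scale among the called members. Of the 53 tested members, 12 were higher in APCCM, against 8.54% of all genes tested, and 5 were lower, against 8.15%. The higher ones were 7 Gst, 3 Sult and 2 NRF2-linked genes, and the lower ones 3 Ugt and 2 Gst genes. The median log2 difference was 0.16, and 0.00 over all genes. With only the conditioned medium libraries in the fit, 21 were higher, and Nqo1, Gclc, Gclm and Srxn1 were among those gained. Over all genes, 1871 of 14970 tested were higher in that fit, against 1410 of 16510 in the main fit.

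Gstk1 was at 12.3, 15.2 and 11.5 CPM in APCCM and at 7.31, 8.32 and 8.46 CPM in WTCM, a log2 difference of 0.69 (SE 0.11, adjusted p = 1.4e-04). Gsta3, an alpha class transferase, was at 212, 216 and 213 CPM against 160, 151 and 138 CPM (difference 0.51, SE 0.06). Sult1d1, a catecholamine sulfotransferase, was at 166, 166 and 168 CPM against 113, 126 and 109 CPM (difference 0.52, SE 0.06). All 3 APCCM libraries were above all 3 WTCM libraries for each of these genes. Sult6b2 (0.48), Gstm5 (0.45), Gstt1 (0.45), Sult1c2 (0.44), Gstm4 (0.30), Gstt2 (0.27) and Txnrd1 (0.20) were higher by less, with no overlap between the groups. Gstp1 and Gsr completed the 12. Among the 3 Ugt genes that were lower, Ugt1a1 was at 36.5, 38.6 and 35.8 CPM in APCCM and at 54.3, 56.5 and 50.4 CPM in WTCM. Its difference was -0.54 (SE 0.06, adjusted p = 9.0e-07). Ugt2b36 differed by -0.51 (SE 0.07) and Ugt2a3 by -0.27 (SE 0.07). Gstm7 (-0.33) and Gsto1 (-0.16) were the other two. The NRF2-linked genes beyond Txnrd1 and Gsr lay between 0.12 for Gclm and 0.43 for Hmox1 without passing the test, and Nqo1 was at 75.3, 75.4 and 71.1 CPM against 69.6, 60.2 and 57.7 CPM. Gstm1 (0.11, SE 0.08) and Gstm3 (-0.04, SE 0.08) did not pass the test on day 2. The calls of Gstm4, Gstp1, Gstt2, Gsr, Gstm7, Gsto1 and Ugt2a3 were each lost when 1 or another library was left out, and 3 members were lower without APCCM replicate 3 or WTCM replicate 2.

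The third comparison is the same on day 4. Of the 53, 29 were higher in APCCM, against 7.83% of all genes tested, and 2 were lower, against 7.80%. The median was 0.27, and 0.00 over all genes. Higher were 11 Gst, 9 Ugt, 2 Sult and all 7 NRF2-linked genes. Without WTCM day 4 replicate 1, 26 were higher and 1 was lower, and Gstm6, Gstt2, Sult2b1, Ugt2b37 and Gpx4 lost their call. Over all genes, 1008 were higher and 1016 lower in that fit, against 1293 and 1288 in the main fit. Without APCCM replicate 3 or WTCM replicate 3, 0 were lower by edgeR. The summed Gst level was 2938 to 3018 CPM in APCCM and 2003 to 2277 CPM in WTCM.

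Among members that average at least 1 CPM in a group, Gstm3 had the largest difference. It was at 503, 545 and 494 CPM in APCCM and at 210, 227 and 262 CPM in WTCM, a log2 difference of 1.14 (SE 0.08, adjusted p = 2.1e-10). Gstm1 was at 766, 735 and 716 CPM against 378, 338 and 424 CPM, a difference of 0.96 (SE 0.08, adjusted p = 4.2e-09). In both cases the lowest APCCM library was far above the highest WTCM library. Gstm3 shares 28.8% and Gstm1 18.9% of their 50-base windows with other transcripts. Reads that aligned to several places were not counted, so the levels of both genes may be understated. Gstm4 (0.63, SE 0.10) was higher too, while Gstm7 was the 1 Gst gene that was lower (-0.25, SE 0.08, adjusted p = 0.03). Outside the mu class, Gstk1 was higher by 0.68 (SE 0.11), close to its day 2 value. Gpx4, the lipid hydroperoxidase, was lower (-0.21, SE 0.07, adjusted p = 0.034), and Gpx1 and Gpx2 did not pass the test.

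Each of the 7 NRF2-linked genes was higher in APCCM on day 4, with no overlap between the groups. On day 2 the groups already did not overlap for 6 of the 7. The share of all genes without overlap was not counted on either day. Nqo1 was at 114, 102 and 108 CPM against 52.7, 49.7 and 70.6 CPM, a difference of 0.90 (SE 0.09, adjusted p = 9.5e-08). Gclc, the catalytic subunit that limits glutathione synthesis, was at 180, 167 and 172 CPM against 115, 104 and 118 CPM (0.62, SE 0.06). Srxn1 was at 61.2, 65.6 and 70.7 CPM against 41.4, 41.7 and 46.5 CPM (0.61, SE 0.07). Hmox1 had the largest difference of the 7 but the lowest level, at 2.59, 3.51 and 3.59 CPM against 1.41, 1.57 and 1.51 CPM (1.10, SE 0.22, adjusted p = 8.6e-04). Gsr (0.37, SE 0.05), Txnrd1 (0.31, SE 0.05) and Gclm (0.27, SE 0.06) were higher by less. Of 12 genes listed for NRF2 control, 0 passed edgeR's test on either day. The list holds Nfe2l2 and Keap1, and also Fth1, Ftl1 and Blvrb, which do not govern NRF2. Nfe2l2 differed by 0.15 (adjusted p = 0.065) on day 4.

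**Figure D4:**
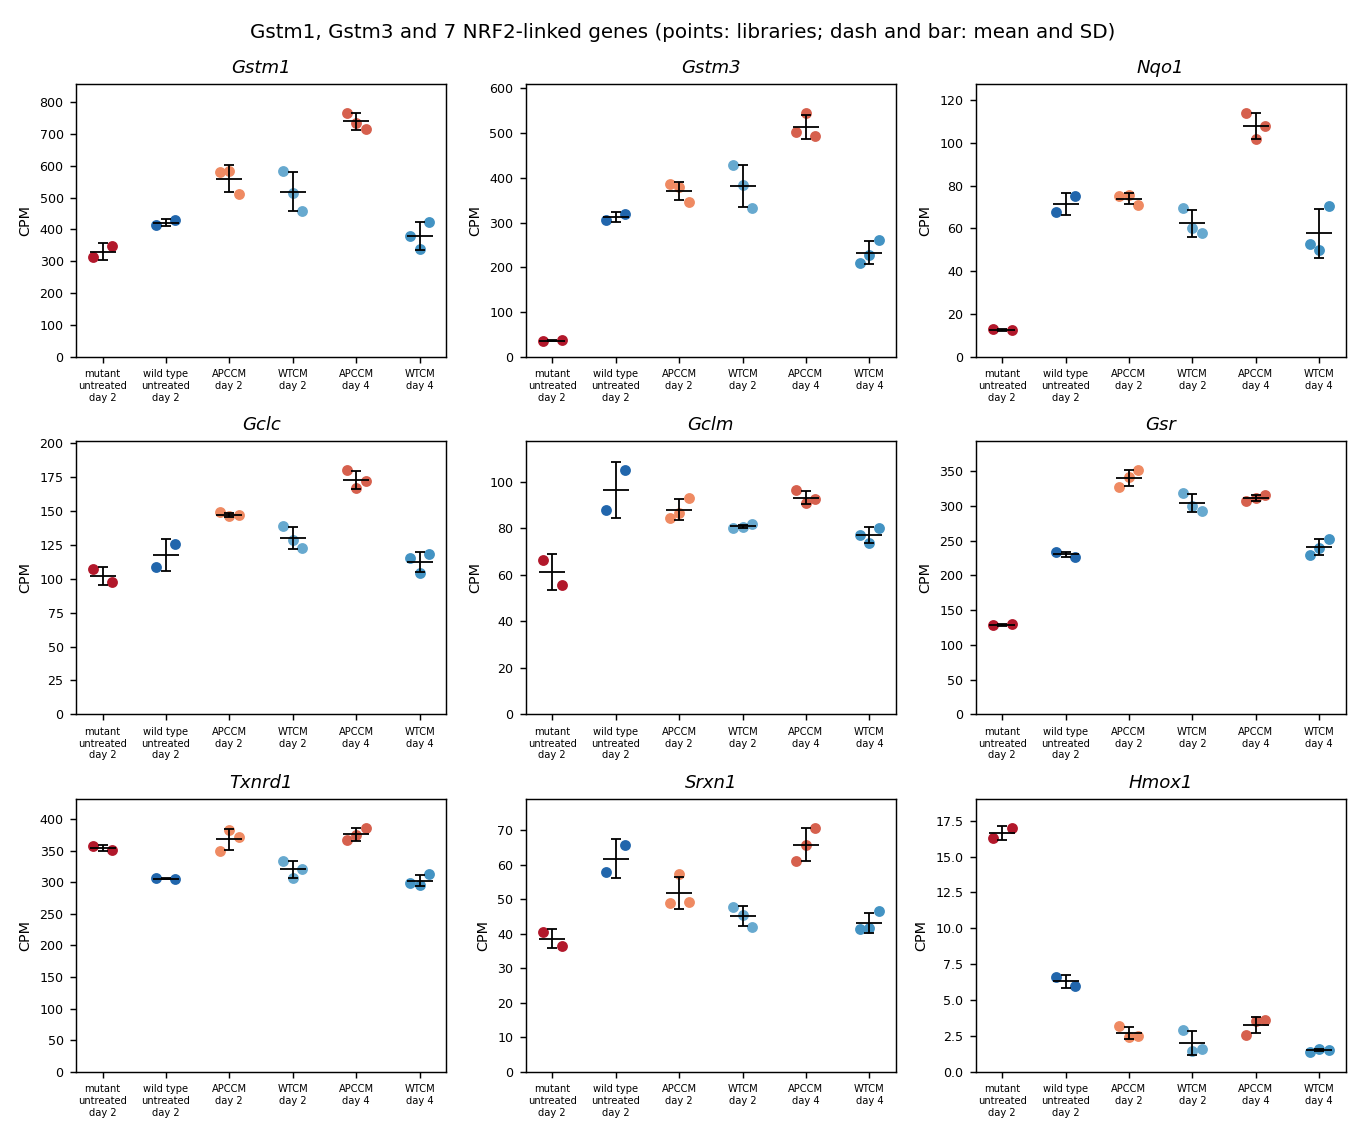
CPM of Gstm1, Gstm3 and the 7 NRF2-linked genes in each library (points) of the 6 groups, with mean and SD (dash and bar). On day 4 the APCCM points lie above the WTCM points in all 9 panels, while Hmox1 is highest in the untreated mutant at 16.3 and 17.0 CPM.

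Among the Ugt genes on day 4, 5 Ugt1a and 4 Ugt2b genes were higher and none was lower. Ugt1a5 was at 8.16, 7.22 and 5.36 CPM against 3.25, 3.27 and 4.17 CPM, a difference of 0.93 (SE 0.17, adjusted p = 4.5e-04). Ugt1a2 (0.91, SE 0.22) and Ugt1a6b (0.88, SE 0.18) were similar in size and also at few CPM. The well expressed Ugt1a7c was at 294, 290 and 306 CPM against 218, 206 and 236 CPM (0.43, SE 0.05). The highest WTCM library was below the lowest APCCM library for each of these genes. Ugt2b34 was higher by 0.31 (SE 0.06, adjusted p = 4.0e-04). Ugt2b37 (2.30, SE 0.70) and Ugt2b38 (1.47, SE 0.49) had larger fitted differences but stayed below 1 CPM on average, and both calls were lost with only the conditioned medium libraries in the fit. Ugt1a1, lower in APCCM on day 2, differed by -0.06 (SE 0.06, adjusted p = 0.54) on day 4. Of the Sult genes, Sult1d1 was at 224, 213 and 229 CPM against 140, 137 and 142 CPM (0.67, SE 0.06), and Sult2b1, which sulfates cholesterol, was the second one that was higher.

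Days 2 and 4 share no library in this comparison. Of the 12 members higher on day 2, 9 were also higher on day 4 (75% of the first list and 31% of the second). The same overlap over all genes was not counted, so these shares have no background. The 9 members were Gsta3, Gstk1, Gstm4, Gstp1, Gstt1, Gstt2, Gsr, Txnrd1 and Sult1d1. Gstm7 was lower on both days.

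**Figure D5:**
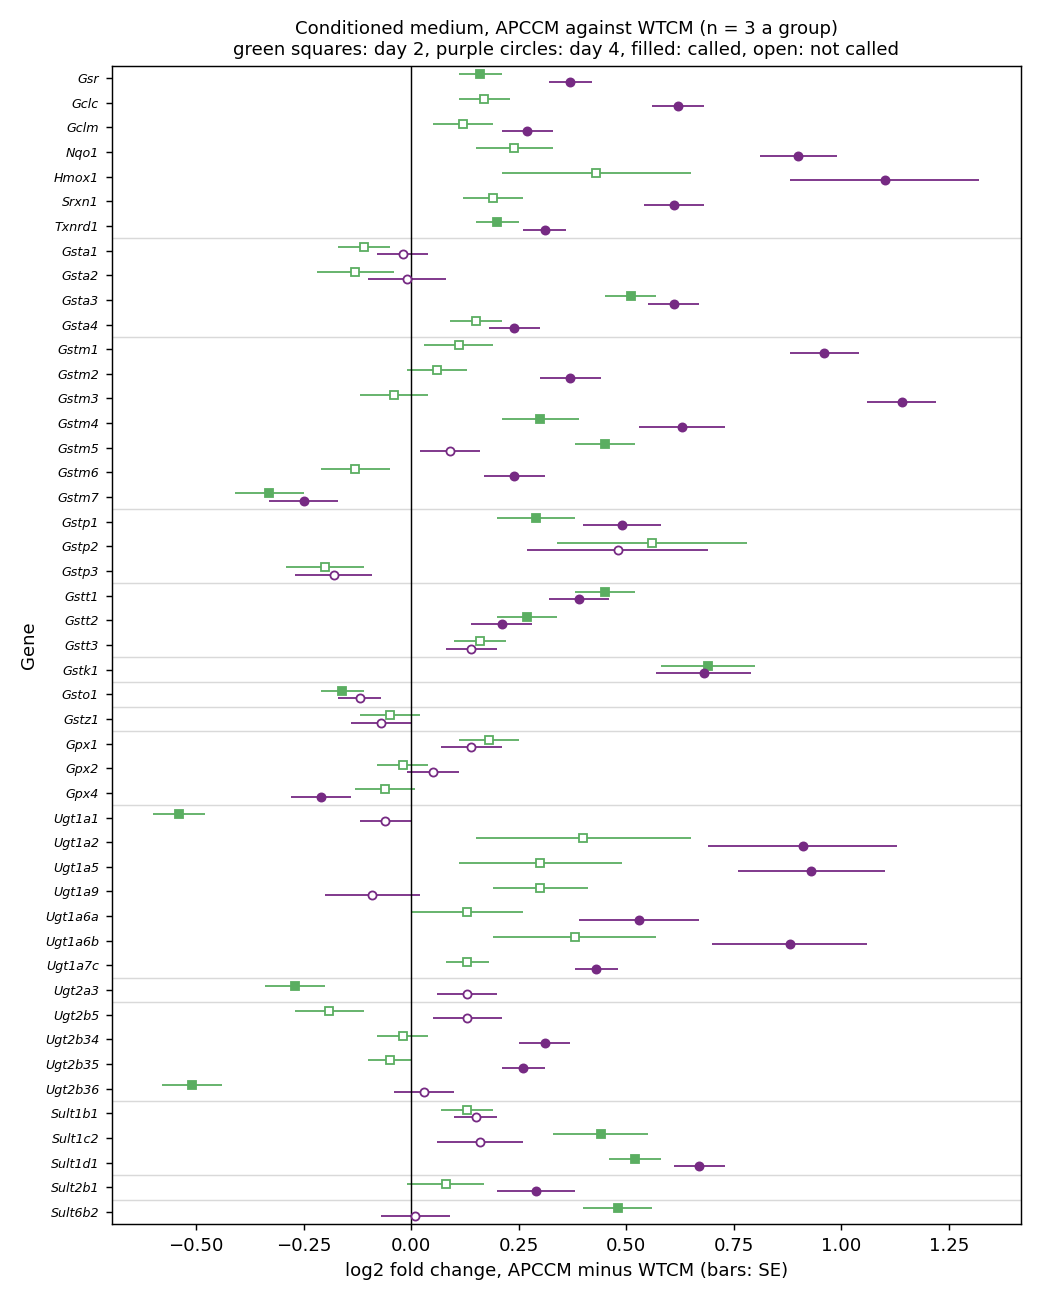
Log2 difference APCCM minus WTCM, with SE, on day 2 (green squares) and day 4 (purple circles) for the tested members that average at least 1 CPM in a conditioned medium group. Filled symbols passed the test. Gstm3 moves from -0.04 to 1.14 and Gstm1 from 0.11 to 0.96, while Gstk1 is at 0.69 and 0.68.

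On day 2, 4 of 7 conjugate exporters were higher, and on day 4, 6 of 7, with the basolateral pump Abcc3 at 0.64 (SE 0.06), the apical pump Abcc2 at 0.55 (SE 0.06) and Abcg2 at 0.31 (SE 0.06). Of 19 tested other xenobiotic enzymes, 8 were higher and 1 was lower on day 4. The aldo-keto reductase Akr1b8 was at 59.5 ± 1.41 CPM (SD, n = 3) against 15.3 ± 3.5, a difference of 1.96 (SE 0.11). The carbonyl reductase Cbr3 differed by 1.23 (SE 0.09) and the epoxide hydrolase Ephx1 by 0.71 (SE 0.06). Of 19 genes of glutathione supply and recycling, 6 were higher and 2 lower, with Chac1 at 0.95 and Cbs at -1.71.

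Marker sums moved with the label as well. On day 4, all 5 crypt base stem markers were lower in APCCM (1898 to 2084 against 3662 to 3798 CPM). Of 10 absorptive enterocyte markers, 2 were higher and 5 lower (11176 to 11964 against 12528 to 13917 CPM). Of 6 enteroendocrine markers, 4 were higher on day 4 (1021 to 1113 against 703 to 833 CPM) and 5 on day 2 (773 to 885 against 469 to 491 CPM). On day 2, 4 of 5 crypt base stem markers were lower (2661 to 2846 against 3487 to 3721 CPM). On the same day, all 7 goblet markers (5655 to 6539 against 4255 to 4779 CPM) and 5 of 6 Paneth markers (6063 to 6580 against 4565 to 4719 CPM) were higher in APCCM. Their part in the result was not tested.

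The comparisons of days follow each label from day 2 to day 4, and share their libraries with the label comparisons. Within APCCM, 27 of 53 members rose, against 12.2% of all genes tested, and 3 fell, against 11.7%. Within WTCM, 11 rose, against 12.5%, and 8 fell, against 11.6%. The medians were 0.25 and 0.08, and 0.00 over all genes for both. Of the 11 that rose in WTCM, 10 also rose in APCCM (90.9% of the former and 37% of the latter). The 10 were Gpx1, Gsta1, Gsta4, Gstt1, Sult1b1, Sult1c2, Sult1d1, Ugt2a3, Ugt2b36 and Ugt2b5. The calls of Gpx1 under both labels, and of Gsta1, Gsta4, Ugt2a3 and Ugt2b5 in WTCM, were lost when 1 or another library was left out. The overlap of rising genes over all genes was not counted. Without WTCM day 4 replicate 1, 9 rose and 8 fell in WTCM, and Gsta1 and Gsta4 lost their call. Over all genes, 1617 rose and 1428 fell in that fit, against 2061 and 1919 in the main fit. Without WTCM day 2 replicate 3 or day 4 replicate 3, 7 rose.

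Ugt genes made up 11 of the 27 in APCCM. Ugt2b36 went from 28.7, 25.0 and 27.1 CPM on day 2 to 60.1, 48.5 and 52.2 CPM on day 4, a log2 change of 0.99 (SE 0.07, adjusted p = 5.8e-10). In WTCM it went from 39.7, 38.3 and 37.0 CPM to 54.1, 49.8 and 53.7 CPM, a change of 0.45 (SE 0.07). The 2 labels started apart and ended within each other's range. Ugt1a1 showed the same course, rising by 0.56 (SE 0.06) in APCCM while its change in WTCM was 0.08 (SE 0.06, adjusted p = 0.35). Ugt2a3 rose by 0.63 and Ugt2b5 by 0.61 in APCCM, and by 0.23 and 0.29 in WTCM. Ugt1a2 (0.86) and Ugt1a5 (0.67) rose in APCCM from few CPM. In WTCM, Ugt1a6a fell by 0.59 (SE 0.14). Ugt1a9 changed by 0.30 there (SE 0.11, adjusted p = 0.048), a call lost by DESeq2 (adjusted p = 0.076), with the replicate block (0.063), with no filter on low counts (0.052) and without WTCM day 2 replicate 1 or 3 or day 4 replicate 2 or 3 (0.11 to 0.19).

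Of the 5 tested Sult genes, 4 rose and 1 fell in APCCM, and 3 rose in WTCM. Sult1c2 went from 33.9, 29.8 and 32.7 CPM to 59.2, 49.4 and 58.8 CPM in APCCM and from 23.0, 24.9 and 23.4 CPM to 63.7, 43.2 and 44.5 CPM in WTCM. These are changes of 0.80 (SE 0.10) and 1.08 (SE 0.11). Sult1b1 rose by 0.47 and 0.45 (SE 0.05 each). Sult6b2 fell by 0.63 (SE 0.08) in APCCM, and its change in WTCM was -0.15 (SE 0.08, adjusted p = 0.2).

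Of the 7 mu class genes, Gstm1 and Gstm3 changed in opposite directions under the labels. Gstm3 rose by 0.47 (SE 0.08, adjusted p = 6.3e-05) in APCCM from 386, 379 and 347 CPM, and fell by 0.71 (SE 0.08, adjusted p = 4.3e-07) in WTCM from 428, 383 and 333 CPM. Gstm1 rose by 0.40 (SE 0.08) from 581, 585 and 510 CPM and fell by 0.45 (SE 0.08) from 582, 513 and 459 CPM. On day 2 the labels overlapped for both genes, and on day 4 they were apart. In WTCM, Gstm4 fell by 0.43 and Gstm2 by 0.34, so 4 of the 7 mu genes fell there. In APCCM, Gstm5 fell by 0.51 (SE 0.07). Gpx2 fell under both labels, by 0.23 and 0.29 (SE 0.06 each), while Gpx1 rose by 0.21 and 0.25 (SE 0.07 each). The Gpx1 call in APCCM was lost with the replicate block and without APCCM day 2 replicate 1 or 3 or day 4 replicate 1, 2 or 3. In WTCM the Gpx1 call was lost without day 4 replicate 3. The Gpx2 call in APCCM was lost without day 2 replicate 2.

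Of the NRF2-linked genes, Nqo1 (0.55, SE 0.09), Srxn1 (0.35, SE 0.07) and Gclc (0.23, SE 0.06) rose in APCCM. In WTCM, none rose, and Gsr fell by 0.33 (SE 0.05) and Gclc by 0.22 (SE 0.06). Nqo1 changed by -0.11 (SE 0.09) and Srxn1 by -0.06 (SE 0.07) in WTCM without passing the test. Of the 12 genes listed for NRF2 control, 4 rose and 2 fell in WTCM. The 2 were Nfe2l2, by 0.27 (adjusted p = 5.1e-04), and Keap1, by 0.22 (adjusted p = 0.012). In APCCM, 5 of the 12 rose and 1 fell. There Nfe2l2 fell by 0.14 (adjusted p = 0.049) and Keap1 changed by -0.01.

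Cell type markers also moved between the days. In APCCM, 6 of 10 absorptive enterocyte markers rose (8896 to 9305 CPM on day 2, 11176 to 11964 CPM on day 4). There 4 of 5 crypt base stem markers fell (2661 to 2846 CPM, then 1898 to 2084 CPM) and 4 of 6 Paneth markers fell. In WTCM, 9 of 10 absorptive enterocyte markers (9176 to 9842 CPM on day 2, 12528 to 13917 CPM on day 4), 4 of 6 Paneth markers (4565 to 4719, then 5812 to 6717 CPM) and 4 of 5 tuft markers (26 to 32.5, then 37.2 to 46.2 CPM) rose. Their part in the members' changes was not tested.

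Whether the label difference changed between the days was tested as an interaction. It was positive for 11 members, against 0.884% of all genes tested, and negative for 1, against 1.24%. By family these were 6 Ugt, 3 NRF2-linked and 2 Gst genes, and 1 Sult gene in the other direction. Gstm3 (1.18, SE 0.11, adjusted p = 4.6e-07) and Gstm1 (0.85, SE 0.11, adjusted p = 3.8e-05) had the largest called values. Nqo1 followed at 0.66 (SE 0.13, adjusted p = 0.0039), and Gclc was at 0.45 (SE 0.09) and Srxn1 at 0.41 (SE 0.10). For Ugt2b36 (0.54, SE 0.10), Ugt1a1 (0.48, SE 0.09) and Ugt2a3 (0.40, SE 0.10) the difference was negative on day 2 and near 0 or above on day 4. Sult6b2 had a negative interaction (-0.48, SE 0.12, adjusted p = 0.026), since it was higher in APCCM on day 2 and level with WTCM on day 4. Without WTCM day 4 replicate 1, 6 positive and 0 negative calls were left by edgeR, and the 6 were Gstm1, Gstm3, Nqo1, Gclc, Ugt1a1 and Ugt2b36. Also 6 were positive without APCCM day 2 replicate 1, WTCM day 2 replicate 2 or WTCM day 4 replicate 2, and 7 without WTCM day 2 replicate 1 or APCCM day 4 replicate 3. Calls over all genes fell too. Positive ones numbered 146 in the main fit, 93 without WTCM day 4 replicate 1 and 87 to 109 in the other fits named here. Negative ones numbered 205 in the main fit and 144 without WTCM day 4 replicate 1. Of the markers, all 6 Paneth genes, 3 of 7 goblet and 2 of 10 absorptive enterocyte genes had a negative interaction, and their part in the result was not tested. Among other xenobiotic enzymes, 7 of 19 had a positive interaction, among them Akr1b8 (0.90) and Cbr3 (0.78).

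Levels with and without conditioned medium are given side by side, with no test. Ugt1a7c averaged 221, 203, 297 and 220 CPM in the 4 conditioned medium groups, against 141 CPM in untreated wild type and 0.261 CPM in the untreated mutant. Ugt1a8 was at no more than 1.14 CPM in any conditioned medium library against 14.8 and 17.9 CPM in untreated wild type. Ugt1a2 and Ugt1a5 were at 1.68 to 8.16 CPM in conditioned medium and at no more than 0.163 CPM without it.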

How the data were processed

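RNA was sequenced from 16 organoid libraries. The deposited values are raw counts per Ensembl gene, 1 file per library. Per the submitters' processing notes the tools were Trimmomatic 0.36, HISAT2 2.1.0 and HTSeq 0.6.1p1 with build GRCm38; the strand setting and annotation release were not stated, so reads of overlapping antisense genes may not be told apart. Reads aligned to several places, 26.5 to 33.3% in conditioned medium and 36.5 to 38.9% without it, were counted in no gene. Summary lines were left out.

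Symbols were matched for 45229 identifiers (98.2%), and 9 matches that are not protein-coding were left out. Counts were tested in R 4.3.3 with edgeR 4.0.16 (TMM, filterByExpr by group, quasi-likelihood test, 1 fit of all 6 groups, Benjamini-Hochberg adjustment over 16510 genes, threshold 0.05). The scripts were tested on simulated data. CPM uses TMM-scaled library sizes. An SE is the absolute log2 difference divided by the square root of the test's F. The floor is 3 counts over a group and covers counting error only. Where groups are said not to overlap, the share of all genes without overlap was not counted. Members named by rule are the NRF2-linked genes, up to 10 called members with the largest differences in each direction (at least 1 CPM in a group, groups not overlapping), the 10 with the highest mean CPM and up to 10 interaction calls; from each pathway list, up to 3 called genes by size. Other names were chosen after their values were seen. The members and lists were chosen with earlier results of these data known. Replicate numbers did not pair the samples. Alternatives were DESeq2 1.42.0, other filters and fits, a replicate block and leaving out each library.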

Additional observations from a re-analysis of the deposited data

Results flagged for a closer look

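The label difference on day 4 differed from that on day 2 for 12 members by the interaction test of edgeR (adjusted p under 0.05). The largest values were 1.18 for Gstm3 and 0.85 for Gstm1, both mu class transferases, on the log2 scale. Both rose from day 2 to day 4 in the libraries labelled APCCM and fell in those labelled WTCM. Of the NRF2-linked genes, Nqo1 was at 0.66, Gclc at 0.45 and Srxn1 at 0.41. Of the Ugt genes, Ugt2b36 was at 0.54, Ugt1a1 at 0.48, Ugt2a3 at 0.40, Ugt2b34 at 0.33, Ugt2b35 at 0.31 and Ugt1a7c at 0.31. Sult6b2 was the 1 member with a negative value, at -0.48.

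Over 18 alternatives, Gstm1 (0.76 to 0.94), Gstm3 (1.09 to 1.28), Gclc (0.40 to 0.49), Nqo1 (0.56 to 0.84), Ugt1a1 (0.41 to 0.52) and Ugt2b36 (0.45 to 0.60) kept their call in all 18. Sult6b2 and Ugt2a3 kept it in 11, and Srxn1 and Ugt2b34 in 9. Ugt1a7c and Ugt2b35 were outside this count. Both lost their call with the replicate block and without WTCM day 4 replicate 1. Without WTCM day 4 replicate 1, the adjusted p was 0.11 for Srxn1, 0.1 for Sult6b2, 0.065 for Ugt2a3 and 0.067 for Ugt2b34.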

How the results depend on the processing

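Direction was compared for 138 single-gene results, those of members named by rule in each comparison, and not for the other members. Among these, no called result changed direction under any alternative, and no uncalled result was called in the opposite direction. A change of sign between uncalled values was not counted. Of 1691 values for 138 single-gene results, 1562 stayed on the same side of the threshold, 100 lost their call and 29 gained one. With only the libraries of the same medium in the fit, 2 members were higher and 39 lower in the untreated mutant, 21 members were higher in APCCM on day 2, 5 fell in APCCM from day 2 to day 4 and 2 had a negative interaction. Over all genes, the same counts were 4556, 4384, 1871, 2369 and 332. In the main fit those over all genes were 5350, 4971, 1410, 1939 and 205. On day 4, 0 members were lower in APCCM by DESeq2 and 1 with the replicate block. The block left 6 positive interactions, and 97 over all genes against 146 in the main fit. Replicate numbers did not pair the samples (correlation of same-numbered libraries -0.10 to 0.08 in conditioned medium and -0.38 without it). A crossed block for the untreated groups, chosen after seeing the data, gave 3 higher and 43 lower. The cause of these shifts was not tested.

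Leaving out 1 library gave 2 to 3 higher and 42 to 43 lower members without medium, 8 to 15 and 3 to 5 on day 2, and 23 to 27 and 0 to 2 on day 4. From day 2 to day 4, 22 to 26 rose and 2 to 3 fell in APCCM, and 7 to 14 rose and 7 to 9 fell in WTCM. Interactions were 6 to 12 positive and 0 to 2 negative. In conditioned medium, calls over all genes were fewer in these fits, except positive interactions without WTCM day 4 replicate 3 (147 against 146). Genes at a few CPM rest on few counts, and the untreated groups have 2 libraries each.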
